A study of Macaca mulatta with 51 samples.

Results

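Matrix metalloproteinases (MMPs), their tissue inhibitors (TIMPs), the ADAMTS proteases and the ADAMTS-like proteins (ADAMTSL) were followed in adipose tissue (AT) and skeletal muscle (SM) of rhesus macaques before, at the end of and after treatment with FGF21. The genes were taken by symbol alone: each row of the count table whose human gene symbol was MMP, TIMP, ADAMTS or ADAMTSL followed by a number and at most 1 letter. This gave 44 of 16033 genes, of which 21 were MMPs, 16 ADAMTS proteases, 4 ADAMTSL proteins and 3 TIMPs. TIMP2, MMP17, MMP24, ADAMTS2, ADAMTS7, ADAMTS8 and ADAMTSL5 were not analysed here. No sequence is shown, because no sequence table was used here.

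The animals were obese, non-diabetic male and ovariectomized female rhesus macaques aged 11 to 22 years, kept on a high-fat diet. All of them received native human FGF21 by daily subcutaneous injection with a dose that was raised stepwise towards 1 mg/kg, and there was no untreated group. Subcutaneous AT and SM of the gastrocnemius were sampled by biopsy before treatment (pre), at 12 weeks of treatment (post) and 16 weeks after the last dose (washout). RNA sequencing counts were available for 10 pre, 9 post and 8 washout libraries of AT and for 6, 8 and 7 libraries of SM. These came from 10 animals, which are named below by the numbers in the labels.

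MMPs are zinc endopeptidases that are made as inactive proenzymes and together cleave most proteins of the extracellular matrix. Collagenases cut fibrillar collagens, gelatinases cut denatured and basement membrane collagens, and membrane-type MMPs act at the cell surface, where MMP14 activates the proenzyme of MMP2. TIMPs block the active site of these enzymes, ADAMTS proteases cleave proteoglycans, procollagens and single substrates such as von Willebrand factor, and ADAMTSL proteins share the ancillary domains of ADAMTS proteases but lack the protease domain. In AT, matrix turnover accompanies the growth and shrinkage of fat cells.

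Genes with 0.5 or more CPM (the count scaled by library size) in 10% or more of a tissue's libraries were tested there, and 37 of the 44 genes passed in AT, 36 in SM and 35 in both. MMP1, MMP8, MMP10, MMP13, MMP20 and MMP26 passed in neither tissue, MMP7 and MMP12 passed in AT alone, and ADAMTS20 in SM alone. Differential expression (DE) was called by edgeR's quasi-likelihood test with animal in the model, where the adjusted p (Benjamini-Hochberg, over the whole table of a tissue) was under 0.05 and the log2 fold change (log2FC) was above 0.26 or below -0.26. Levels are TMM-normalised CPM, scaled within each tissue, so that levels of AT and SM are not on one scale, and log2FC are given with their SE. Levels of different genes are not ranked, since gene lengths were not available for this scale.

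Total counts per library ran from 14455195 to 23940980. Marker genes matched the tissue labels: the summed level of 9 skeletal muscle fiber genes was 66.3 to 188 CPM in AT and 54511 to 280164 CPM in SM. The SM post library of animal 21189 stood apart, with the lowest muscle fiber sum (54511 CPM) and the highest sum of 10 fibroblast and progenitor genes (17264 CPM, against a median of 2746 CPM in SM post).

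During treatment, AT showed 10 DE genes among the 37, or 27.0% beside 15.5% of all 13367 genes tested. MMP11, ADAMTS16, MMP2 and MMP14 rose (10.8%, beside 6.98% of all genes), while MMP15, ADAMTSL2, ADAMTS5, TIMP3, ADAMTSL3 and ADAMTS15 fell (16.2%, beside 8.49%). The median log2FC of the 37 genes was 0.23, beside 0.03 over all genes tested. For none of the 37 genes did the post and pre libraries separate without overlap, beside 0.0748% of all genes tested.

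Among the secreted MMPs, MMP2, or gelatinase A, ranged from 2318 to 4551 CPM before treatment (median 2925, n = 10) and from 2741 to 6259.7 CPM after it (median 4139.7, n = 9). It was higher in 8 of 9 paired animals, with a log2FC of 0.40 ± 0.13 (edgeR, adjusted p = 0.041). MMP11, or stromelysin-3, an MMP made by stromal cells and activated inside the cell by furin, stood at 5.09 to 23.8 CPM before treatment (median 11.2) and at 12.5 to 97.4 CPM after it (median 29.5). It rose in 9 of 9 animals, by 0.55 to 2.92 on the log2 scale, with a log2FC of 1.34 ± 0.20 (edgeR, adjusted p = 0.00103). MMP9, or gelatinase B, an enzyme typical of macrophages and neutrophils, did not pass the test (log2FC 1.08 ± 0.71, edgeR adjusted p = 0.292), with a range of 14.0 to 318 CPM before and 8.08 to 718 CPM after treatment. The single animals differed strongly: MMP9 went from 14.0 to 718 CPM in animal 22130 and from 25.1 to 489 CPM in animal 20275, but from 20.2 to 8.08 CPM in animal 21866.

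The 3 membrane-type MMPs tested that are anchored by a transmembrane domain did not move together. MMP14 (MT1-MMP) ranged from 396 to 749 CPM before treatment (median 512) and from 471 to 986 CPM after it (median 747), higher in 8 of 9 animals (log2FC 0.38 ± 0.11, edgeR adjusted p = 0.0318). MMP15 (MT2-MMP), its close relative, ranged from 63.6 to 138 CPM before treatment (median 104) and from 20.5 to 89.8 CPM after it (median 37.8). MMP15 was lower in 9 of 9 animals, with a log2FC of -1.33 ± 0.22 (edgeR, adjusted p = 0.00224). MMP16 (MT3-MMP) was higher in 7 of 9 animals, but its log2FC of 0.62 ± 0.21 did not pass the test (edgeR, adjusted p = 0.0549). Thus MMP14 and MMP15 were both DE with opposite signs by edgeR. With limma voomWithQualityWeights, the method of the study as run here, MMP15 was DE and MMP14 was not.

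**Figure D1:**
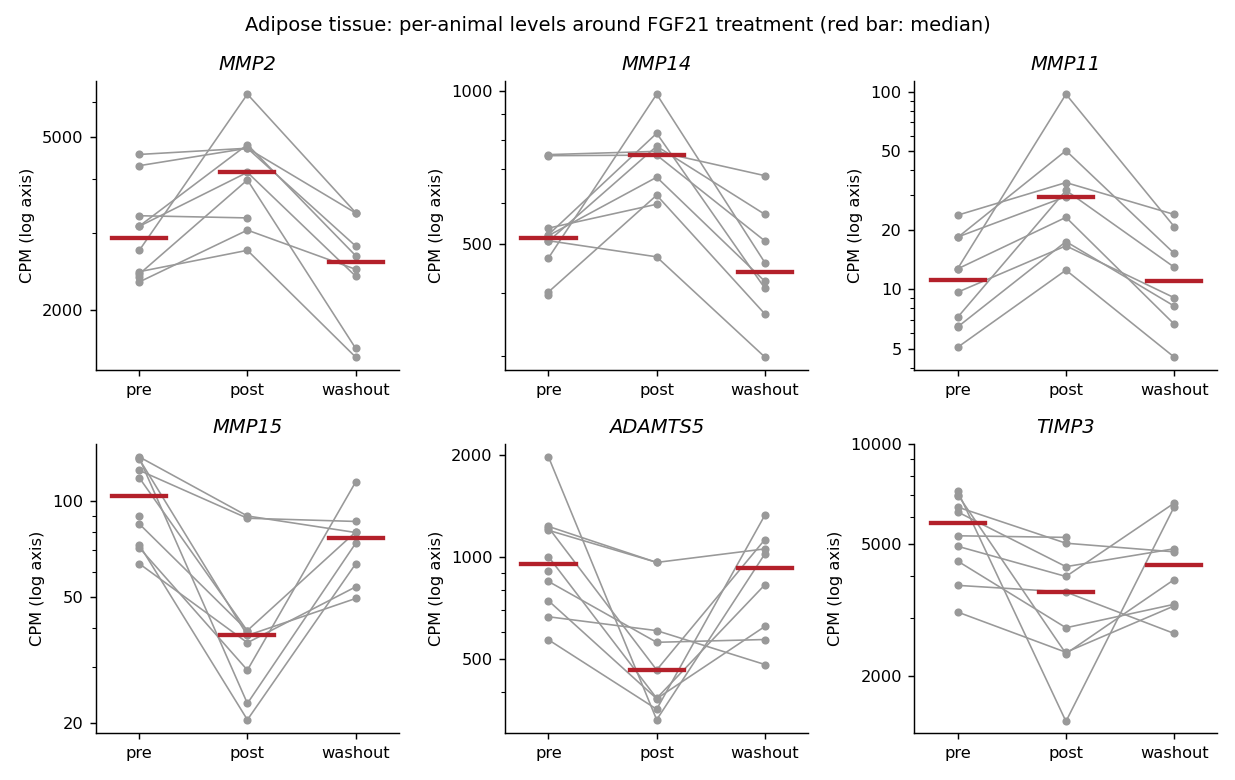
Levels of 6 genes in AT at the 3 time points, in TMM-normalised CPM on a log axis. Grey points are libraries, grey lines join the libraries of 1 animal and red bars are medians. MMP11 rises and MMP15, ADAMTS5 and TIMP3 fall from pre to post in each of the 9 paired animals, and the medians of all 6 genes move back at washout.

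Of the inhibitors, TIMP3, the TIMP that binds to the matrix and also blocks ADAMTS4 and ADAMTS5, ranged from 3116 to 7191 CPM before treatment (median 5759) and from 1461 to 5227 CPM after it (median 3579.6). TIMP3 was lower in 9 of 9 animals (log2FC -0.65 ± 0.21, edgeR adjusted p = 0.0427). The single animals fell by 0.02 to 2.30 on the log2 scale, and the ranges of the groups overlapped. TIMP1, which binds the proenzyme of MMP9, had the same median of 187 CPM at both times (log2FC 0.27 ± 0.31, edgeR adjusted p = 0.577). TIMP4 had medians of 51.6 and 65.0 CPM and was higher in 7 of 9 animals (log2FC 0.82 ± 0.32, edgeR adjusted p = 0.0779). So 1 of the 3 TIMPs was DE.

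Among the proteoglycan-cleaving ADAMTS proteases, ADAMTS5, an aggrecanase that also cleaves versican, ranged from 569.7 to 1978 CPM before treatment (median 957) and from 331 to 965 CPM after it (median 464). It fell in 9 of 9 animals (log2FC -0.91 ± 0.23, edgeR adjusted p = 0.0171). ADAMTS15, another member of this group, fell from a median of 150.0 CPM (102 to 269.9) to 109 CPM (74.3 to 153), again in 9 of 9 animals (log2FC -0.53 ± 0.16, edgeR adjusted p = 0.0292). ADAMTS1, ADAMTS4 and ADAMTS9 were not DE, with log2FC of -0.08, 0.42 and 0.09. ADAMTS5 and ADAMTS1 lie next to each other in the RefSeq annotation of the rhesus genome.

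ADAMTS16 rose from a median of 8.32 CPM (3.15 to 24.3) to 15.1 CPM (9.68 to 31.7) and was higher in 8 of 9 animals (log2FC 0.95 ± 0.21, edgeR adjusted p = 0.00856). The 2 procollagen N-propeptidases tested, ADAMTS3 and ADAMTS14, were not DE. ADAMTS14 had a log2FC of 1.42 ± 0.50 (edgeR, adjusted p = 0.0569), with a range of 1.94 to 15.8 CPM before and 4.40 to 37.2 CPM after treatment, and ADAMTS3 had a log2FC of -0.04 ± 0.20. Of the ADAMTSL proteins, ADAMTSL2, which binds fibrillin and latent TGF-beta binding protein, fell from a median of 3.01 CPM (1.75 to 8.51) to 1.19 CPM (0.415 to 5.54) in 9 of 9 animals. Its log2FC was -1.27 ± 0.23 (edgeR, adjusted p = 0.00262). ADAMTSL3 (punctin-2) fell from a median of 16.7 to 10.5 CPM and was lower in 8 of 9 animals (log2FC -0.61 ± 0.17, edgeR adjusted p = 0.0253).

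The calls differed in how firmly they stood. MMP11, MMP15 and ADAMTSL2 were DE under each of the 21 alternative fits, among them each animal left out in turn. ADAMTS5 was DE in 20 of them, ADAMTS16 in 19, ADAMTSL3 in 16, ADAMTS15 in 14, TIMP3 in 12, MMP14 in 11 and MMP2 in 9. Some genes not called in the reported fit were near the limit. MMP16 was DE in 6 and TIMP4 in 3 of the 21 fits, limma voomWithQualityWeights and DESeq2 among them. ADAMTS14 was DE with DESeq2 and without animal 20456. The count of 10 became 4 without animal 22130, 6 without animal 21189 and 5 without animal 26292, without animal 20275 or without its pre library alone. The share over all genes tested fell as well, to 6.05% without animal 22130 and 8.7% without that pre library.

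Markers of other cell types moved in the same libraries. The summed level of 12 macrophage genes in AT was 735 to 3023 CPM before treatment (median 1612) and 1149 to 7368 CPM after it (median 3162). Of these 12 genes, 12 had a positive log2FC and 4 were DE. Over all genes tested, 6.98% were DE and higher and 8.49% DE and lower. The 10 fibroblast and progenitor genes summed to a median of 19687 CPM before and 28765 CPM after treatment, with 2 higher and none lower among DE genes, and the 5 adipocyte genes tested to medians of 19333 and 17221 CPM, with 2 DE, both lower. Of the erythroid genes, HBA1 and HBA2 were listed at 0 counts in each library, and the sum, which was mostly that of the hemoglobin gene HBB, had a median of 2676 CPM (326 to 10536) before and 851 CPM (454 to 7641) after treatment. Neither HBB (log2FC -1.13 ± 0.62, edgeR adjusted p = 0.201) nor ALAS2 (log2FC -1.66 ± 0.61, edgeR adjusted p = 0.0675) was DE. In bulk tissue, fewer cells of a type and less RNA per cell cannot be told apart, and the part of these cell types in the changes of MMPs, TIMPs and ADAMTS genes was not tested.

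The changes of 3 pairs of readouts were then compared over the 9 animals, all chosen after the values had been seen. The log2 changes of MMP14 and MMP2 from pre to post had a Pearson r of 0.87 (exact permutation p = 0.00215, adjusted over 3 relations p = 0.00646) and a Spearman rho of 0.73 (exact permutation p = 0.0311, adjusted p = 0.0649). Without the 2 animals whose MMP14 change lay farthest from the median, r was 0.78 over 7 animals (exact permutation p = 0.0518), and over the 6 animals with both libraries in the last series of library identifiers it was 0.86 (exact permutation p = 0.0222). The change of MMP9 had an r of 0.87 with the mean log2 change of the macrophage list (exact permutation p = 0.00639, adjusted p = 0.00958) and a rho of 0.70 (exact permutation p = 0.0433, adjusted p = 0.0649). That relation rested on the 2 animals with the most distant macrophage change, since r was 0.51 without them (exact permutation p = 0.247), while it was 0.93 over the 6 animals of the last series (exact permutation p = 0.025). These 6 include animal 20275, which had the largest MMP9 change among them (25.1 to 489 CPM), and r without it was not computed. The change of MMP2 had an r of 0.20 with that of the fibroblast and progenitor list (exact permutation p = 0.616) and a rho of 0.27 (exact permutation p = 0.493), both with adjusted p-values of the same size, an r of -0.14 without the 2 farthest animals (exact permutation p = 0.697) and of 0.41 in the last series (exact permutation p = 0.362).

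Other genes of matrix turnover gave the surroundings of these changes. Of 32 tested regulators and partners of matrix proteases, such as cathepsins, plasminogen activators and their inhibitors, 4 were higher and 1 lower from pre to post in AT. Over all genes tested, 6.98% were higher and 8.49% lower, or 15.5% in either direction. Cathepsin K (CTSK), a collagen-cleaving cysteine protease, had medians of 1022 and 1791 CPM (log2FC 1.01 ± 0.25, edgeR adjusted p = 0.0155), and cathepsin S (CTSS) medians of 192 and 334 CPM (log2FC 1.05 ± 0.35, edgeR adjusted p = 0.0457). The urokinase gene PLAU rose as well (log2FC 0.78 ± 0.24) and the serine protease HTRA1 fell (log2FC -0.45 ± 0.14). Of 34 tested matrix substrates, 4 were higher and 5 lower, beside the same shares over all genes. The fibrillar collagen I chains COL1A1 and COL1A2 rose (log2FC 1.02 ± 0.30 and 0.81 ± 0.26), and the basement membrane linker NID2 fell (log2FC -1.02 ± 0.20). FBN2 was called higher with a log2FC of 1.81 ± 0.60, although its median was 0.153 CPM at both times and only 4 of 9 animals were higher. The medians of the regulator and substrate lists were 0.14 and 0.07, beside 0.03 over all genes.

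From post to washout in AT, 17 of the 37 genes were DE, or 45.9% beside 35.4% of all genes tested. The 8 that rose (21.6%, beside 17.6% of all genes) were ADAMTS10, ADAMTS13, ADAMTSL2, MMP15, MMP28, ADAMTS5, ADAMTSL3 and ADAMTS1. The 9 that fell (24.3%, beside 17.8%) were MMP9, ADAMTS12, ADAMTS16, MMP11, MMP16, TIMP4, ADAMTSL1, MMP2 and MMP14. This comparison shares the post libraries with the one before, so that opposite signs of the same gene in both are not independent observations. Of the MMPs tested, 5 of 15 fell and 2 rose, and of the ADAMTS proteases 4 of 15 rose and 2 fell.

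The largest fitted fall among the DE genes was that of MMP9, which went from a median of 141 CPM (8.08 to 718) to 24.2 CPM (2.66 to 526.3). It was lower in 7 of 8 paired animals (log2FC -2.29 ± 0.78, edgeR adjusted p = 0.0278), and animal 23004 alone rose, from 238 to 526.3 CPM. MMP11 returned to a median of 11 CPM (4.54 to 24.0) and fell in 8 of 8 animals (log2FC -1.36 ± 0.21, edgeR adjusted p = 0.000102). MMP2 fell to a median of 2572 CPM (1558 to 3347), lower in 8 of 8 animals (log2FC -0.75 ± 0.14, edgeR adjusted p = 0.000393), and MMP14 to a median of 439.8 CPM (299 to 681), also in 8 of 8 animals (log2FC -0.67 ± 0.12, edgeR adjusted p = 0.000367). MMP16 fell to 9.69 CPM (6.67 to 21.3), again in 8 of 8 animals (log2FC -1.35 ± 0.23, edgeR adjusted p = 0.000252). MMP15 rose to a median of 76.7 CPM (49.4 to 115), in 6 of 8 animals (log2FC 0.88 ± 0.23, edgeR adjusted p = 0.00605). MMP28, or epilysin, a secreted MMP, rose from a median of 47.9 CPM (20.8 to 66.8) to 98.3 CPM (48.6 to 131), in 6 of 8 animals (log2FC 0.84 ± 0.24, edgeR adjusted p = 0.01).

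TIMP4 was the 1 inhibitor called, with a fall from a median of 65.0 CPM (9.5 to 346) to 21.4 CPM (10.6 to 133), lower in 5 of 8 animals (log2FC -1.09 ± 0.34, edgeR adjusted p = 0.0168). TIMP3 had a median of 4316 CPM (2687 to 6626) at washout (log2FC 0.41 ± 0.22, edgeR adjusted p = 0.153). TIMP1 had a median of 223 CPM, with 1012 CPM in animal 21189 as its highest value (log2FC 0.38 ± 0.34, edgeR adjusted p = 0.388).

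In 3 of the 37 genes, all ADAMTS proteases, the post and washout libraries did not overlap, or 8.11% beside 2.41% of all genes tested. ADAMTS10, which acts on fibrillin microfibrils, lay between 11.6 and 32.8 CPM at post (median 25.2) and between 42.1 and 101 CPM at washout (median 87.1). It rose in 8 of 8 animals (log2FC 1.59 ± 0.21, edgeR adjusted p = 2.59e-05). ADAMTS13, the protease of von Willebrand factor, lay between 1.09 and 3.52 CPM at post (median 2.12) and between 4.14 and 7.56 CPM at washout (median 5.71), with a log2FC of 1.49 ± 0.19 (edgeR, adjusted p = 2.33e-05). ADAMTS16 went the other way, from 9.68 to 31.7 CPM at post down to 2.35 to 9.16 CPM at washout (median 5.92), with a log2FC of -1.74 ± 0.23 (edgeR, adjusted p = 2.74e-05).

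ADAMTS12, which cleaves cartilage oligomeric matrix protein, fell from a median of 23.3 CPM (19.1 to 71.7) to 5.79 CPM (3.25 to 41.4), in 8 of 8 animals (log2FC -1.97 ± 0.22, edgeR adjusted p = 8.36e-06). Animal 26292 had the highest ADAMTS12 level at each of the 3 time points in AT, so that the groups overlapped through this animal alone, although it also fell. ADAMTS5 rose to a median of 926 CPM (482 to 1331), in 7 of 8 animals (log2FC 0.74 ± 0.24, edgeR adjusted p = 0.0228), and its neighbour ADAMTS1 from a median of 81.6 to 106 CPM, in 7 of 8 animals (log2FC 0.37 ± 0.12, edgeR adjusted p = 0.0213). ADAMTS15 did not pass the test (log2FC 0.30 ± 0.16, edgeR adjusted p = 0.164). ADAMTSL2 rose to a median of 3.30 CPM (2.21 to 7.46) in 8 of 8 animals (log2FC 1.48 ± 0.24, edgeR adjusted p = 0.000132) and ADAMTSL3 to 13.3 CPM (log2FC 0.49 ± 0.18, edgeR adjusted p = 0.04). ADAMTSL1 (punctin-1) fell from a median of 5.98 to 2.96 CPM, in 8 of 8 animals (log2FC -0.99 ± 0.18, edgeR adjusted p = 0.000355).

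**Figure D2:**
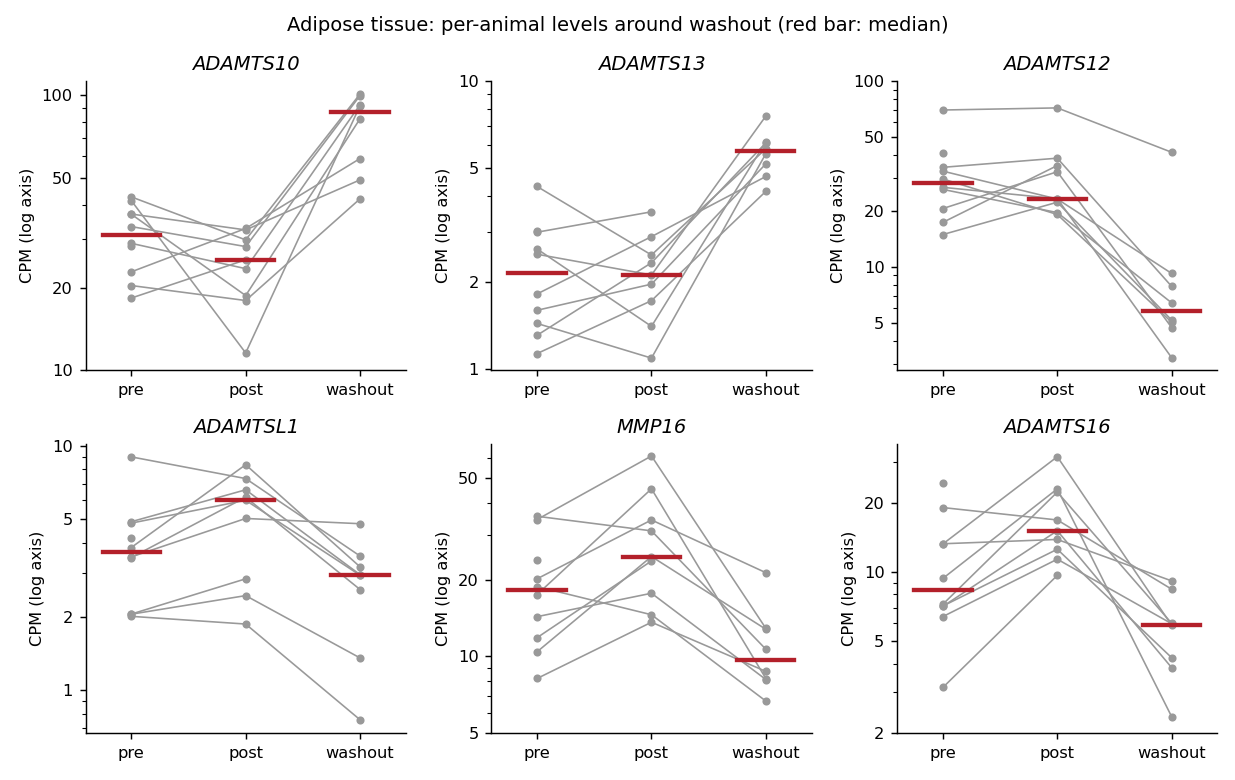
Levels of 6 genes in AT at the 3 time points, in TMM-normalised CPM on a log axis. Grey points are libraries, grey lines join the libraries of 1 animal and red bars are medians. ADAMTS10 and ADAMTS13 at washout lie above each post library, ADAMTS16 at washout lies below each post library, and ADAMTS12 falls in 8 of 8 animals.

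The 20 alternative fits of this comparison left ADAMTS10, ADAMTS12, ADAMTS13, ADAMTS16, ADAMTSL2, MMP2, MMP11, MMP14 and MMP28 DE in each. ADAMTSL1, MMP15 and MMP16 lost the call only in the last identifier series alone, TIMP4 in 4 fits, and MMP9, ADAMTS1 and ADAMTS5 in 5 fits each. ADAMTSL3 was DE in 9 of the 20. MMP9 lost the call without animal 20275, 21189 or 22130, with adjusted p-values up to 0.217 over its alternatives.

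At the same time 12 of 12 macrophage genes were DE and lower, and their sum fell to a median of 845 CPM (499 to 3264), highest in animal 23004, the animal in which MMP9 rose. The plot of MMP9 against this sum sets the 27 AT libraries side by side. Of the fibroblast and progenitor genes, 3 of 10 were lower (median sum 17999.8 CPM) and none higher. Smooth muscle and pericyte genes had 2 of 5 higher, and endothelial genes 2 of 6 higher. The erythroid sum had a median of 5107 CPM (457 to 11980.1) at washout, and both erythroid genes tested were DE and higher (HBB log2FC 1.59 ± 0.60, edgeR adjusted p = 0.045, and ALAS2 log2FC 1.80 ± 0.60, edgeR adjusted p = 0.025). The part of these cell types in these changes was not tested. Among the other genes of matrix turnover, 4 regulators rose and 13 fell, and 2 substrates rose and 11 fell. The shares over all genes tested, also for the marker lists above, were 17.6% higher and 17.8% lower. CTSS (log2FC -1.70 ± 0.37), CTSK (-1.36 ± 0.27), COL1A1 (-1.09 ± 0.31) and COL1A2 (-0.76 ± 0.27) fell and NID2 rose (0.92 ± 0.22), each with an edgeR adjusted p under the limit, whereas PLAU (-0.61 ± 0.25), HTRA1 (0.15 ± 0.14) and FBN2 (-0.91 ± 0.55) were not DE.

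**Figure D3:**
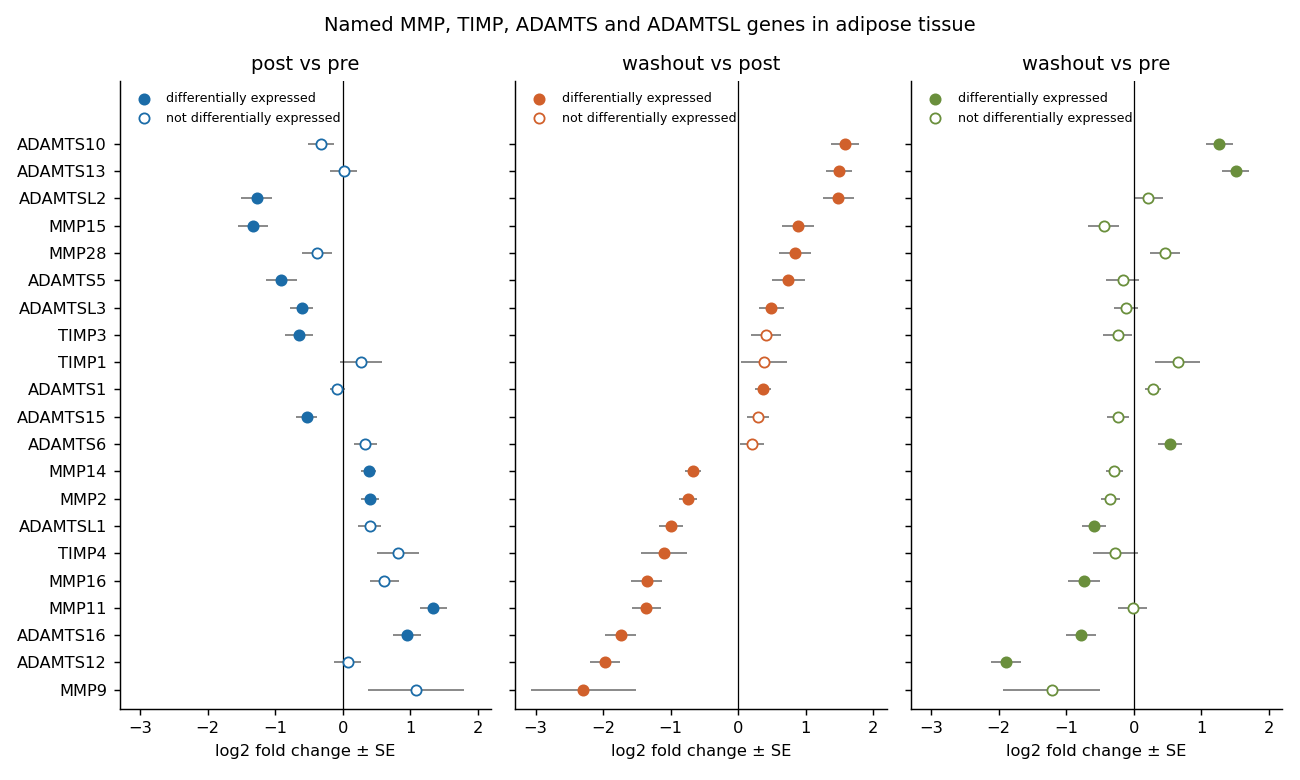
Fitted log2FC with SE (bars) of the 21 named genes in AT in the 3 comparisons, with filled points for DE genes. From post to washout 8 genes are filled on the right and 9 on the left of 0, and between pre and washout 7 genes are filled.

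Washout was also compared with pre, 16 weeks after the last dose. Here 7 of 37 genes were DE, or 18.9% beside 20.5% of all genes tested, with 3 higher (beside 12.5% of all genes) and 4 lower (beside 7.96%). Over all genes in AT, 2735 were DE from pre to washout and 4731 from post to washout. The paper lists more for the first of these comparisons and fewer for the second, so that their order is reversed. Its AT count from pre to post was near the 2068 found here. The cause of the difference was not tested. ADAMTS13 rose from a median of 2.16 CPM (1.13 to 4.3) before treatment to 5.71 CPM at washout (log2FC 1.51 ± 0.19, edgeR adjusted p = 1.94e-05), and ADAMTS10 from 31.1 CPM (18.3 to 42.7) to 87.1 CPM (log2FC 1.26 ± 0.20, edgeR adjusted p = 0.000152), both in 8 of 8 animals. Both groups overlapped by little: the lowest washout library had 42.1 CPM of ADAMTS10 and the highest pre library 42.7 CPM. ADAMTS12 fell from a median of 28.3 CPM (14.9 to 69.8) to 5.79 CPM, in 8 of 8 animals (log2FC -1.89 ± 0.22, edgeR adjusted p = 8.87e-06).

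The other 4 were closer to the limit. ADAMTS16 was lower in 8 of 8 animals (log2FC -0.78 ± 0.23, edgeR adjusted p = 0.0174), ADAMTSL1 in 7 of 8 (log2FC -0.59 ± 0.18, edgeR adjusted p = 0.0234) and MMP16 in 5 of 8 (log2FC -0.74 ± 0.23, edgeR adjusted p = 0.0273). ADAMTS6, which like ADAMTS10 acts on microfibrils, was higher in 6 of 8 animals, with medians of 7.55 and 10.9 CPM (log2FC 0.54 ± 0.18, edgeR adjusted p = 0.0355). The genes that had moved from pre to post gave smaller log2FC: -0.02 ± 0.21 for MMP11, 0.21 ± 0.22 for ADAMTSL2, -0.16 ± 0.24 for ADAMTS5, -0.24 ± 0.22 for TIMP3 and -0.44 ± 0.23 for MMP15, none of which passed the test. These genes were picked by their change from pre to post, and both comparisons share the pre libraries. Their smaller log2FC are therefore not independent observations. MMP2 and MMP14 had log2FC of -0.34 ± 0.14 and -0.29 ± 0.12 (edgeR, adjusted p = 0.0782 and 0.0984).

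ADAMTS10, ADAMTS12 and ADAMTS13 were DE in each of 21 alternative fits, and ADAMTS16 in 20. ADAMTSL1, MMP16 and ADAMTS6 were DE in 14, 13 and 11. Some named genes without a call in the reported fit gained one. ADAMTS1 was DE in 5 of the 21 fits, MMP2 in 4, MMP28 and ADAMTS15 in 2 each, and MMP14 and TIMP1 in 1 each. With limma voomWithQualityWeights, the method of the study, MMP2 and MMP14 were DE and lower at washout than at pre, and ADAMTS1 and MMP28 DE and higher. With library size alone in place of TMM, which moved the median of all genes by 0.11, 4 genes were higher and 2 lower in place of 3 and 4. The count was 4 without animal 23004. Of the 12 macrophage genes, 6 were DE, all lower. Among other markers, 1 of 10 fibroblast and progenitor genes was lower, 2 of 6 endothelial genes were higher, and neither erythroid gene tested was DE. Over all genes tested, 12.5% were higher and 7.96% lower. Groups that do not overlap were found for none of the 37 genes, beside 2.27% of all genes tested.

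In SM, none of the 36 genes tested was DE in any of the 3 comparisons by edgeR. Over all 12617 genes tested the share was 0% from pre to post, 0.19% from post to washout (0.182% higher and 0.00793% lower) and 0.0634% from pre to washout. The last share is 8 genes, whereas the paper lists many more DE genes in SM from pre to washout. Its SM counts for the other comparisons were near those found here. The cause of the difference from pre to washout was not tested. At an unadjusted p under 0.05 there were 4 of the 36 genes from pre to post (ADAMTS1, ADAMTS13, MMP3 and MMP9), 5 from post to washout and 3 from pre to washout. The share of all genes at that limit was not computed, so these counts are not read as a result about the 36 genes. limma voomWithQualityWeights called none, and DESeq2 called ADAMTSL3 from post to washout and ADAMTS19 from pre to washout.

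The spread between SM libraries of 1 group was wide. MMP2 ranged from 38.4 to 627 CPM at pre (median 103, n = 6), from 34.1 to 1514 CPM at post (median 277, n = 8) and from 26.3 to 533 CPM at washout (median 76.6, n = 7). Its log2FC from pre to post was 0.67, with an SE of 0.93 against 0.13 in AT. The libraries with high MMP2 also had high fibroblast and progenitor sums: at post, animal 21189 had 1514 CPM of MMP2 beside a sum of 17264 CPM, animal 21866 had 948 CPM beside 14484 CPM, and animal 23004 had 34.1 CPM beside 354 CPM. At pre the highest MMP2 library was that of animal 24849 (627 CPM, sum 5038 CPM) and at washout that of animal 22130 (533 CPM, sum 4658 CPM). MMP14 behaved likewise in its extremes, with 260.1 CPM in animal 21189 and 4.58 CPM in animal 23004 at post, as did MMP11, with 41.5 CPM in animal 21189 against a post median of 0.773 CPM. Without the SM post library of animal 21189 the count of DE genes was still 0 from pre to post and from post to washout. By library identifier, the 3 SM post libraries of the last series had 503 to 1514 CPM of MMP2. The 5 SM post libraries of the first series had 34.1 to 552 CPM. At pre, the highest MMP2 library (627 CPM) was in the first series. The parts of fibroblast content and of the identifier series in the SM spread were not tested.

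**Figure D4:**
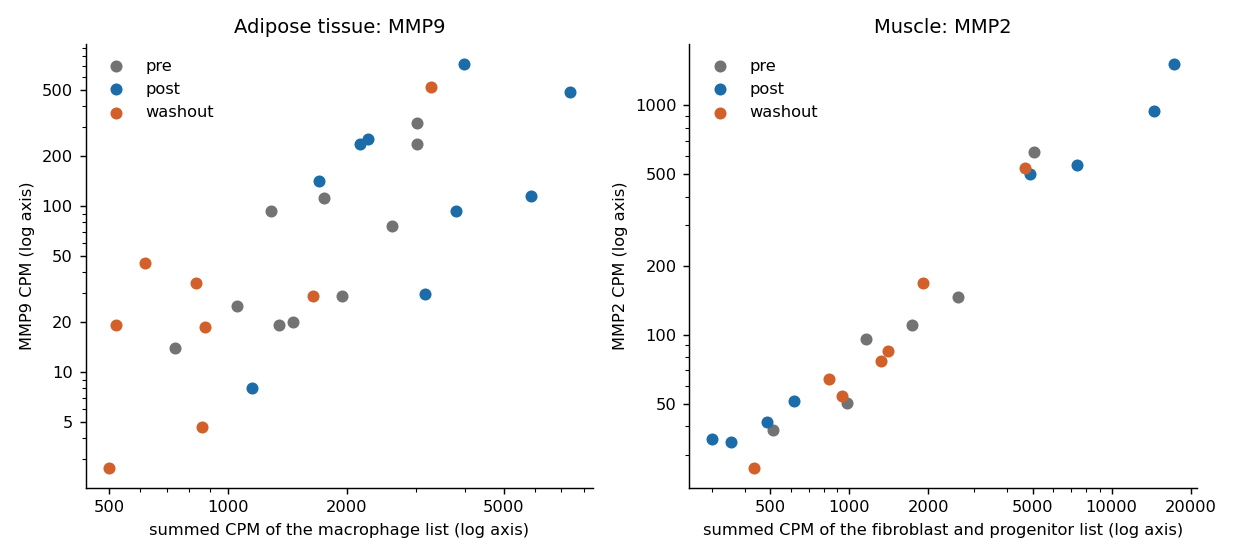
Levels of MMP9 in the 27 AT libraries against the summed level of 12 macrophage genes (left) and of MMP2 in the 21 SM libraries against the summed level of 10 fibroblast and progenitor genes (right), both in CPM on log axes and colored by time point. In SM, MMP2 is highest in the libraries with the highest fibroblast and progenitor sums, up to 1514 CPM at 17264 CPM.

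Whether AT and SM changed differently was tested in 1 fit over both tissues. From pre to post, the change differed in none of 35 genes by edgeR (0.073% of all 12322 genes), with 4 at an unadjusted p under 0.05 (ADAMTS5, ADAMTS15, MMP15 and ADAMTSL2), and limma voomWithQualityWeights also called none. The share of all genes at an unadjusted p under 0.05 was not computed here either. From post to washout it differed in 4 of 35 genes, or 11.4% beside 22.5% of all genes, with 2 higher in AT (beside 12.2%) and 2 lower (beside 10.3%). The change was larger in AT by 2.09 ± 0.36 on the log2 scale for ADAMTS10 (edgeR, adjusted p = 6.85e-05) and by 1.72 ± 0.31 for ADAMTS13 (adjusted p = 0.000112). It was lower in AT by 1.84 ± 0.62 for ADAMTS12 (log2 difference -1.84, adjusted p = 0.0287) and by 2.22 ± 0.78 for ADAMTSL1 (log2 difference -2.22, adjusted p = 0.035). ADAMTS10 had SM medians of 6.73 CPM at post and 3.92 CPM at washout, and ADAMTS13 of 4.58 and 3.95 CPM, whereas ADAMTS12 and ADAMTSL1 stood under 1 CPM at the SM median of each time point. With library size alone, which moved the median of all genes by 0.25, ADAMTS10 and ADAMTS13 stayed DE and ADAMTS12 and ADAMTSL1 did not.

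Before treatment, 26 of 35 genes differed between the tissues, or 74.3% beside 77.8% of all genes, so that the share was near that of the background. Higher in AT were 24 genes (68.6% of those tested, beside 41.2% of all genes) and lower 2 (5.71%, beside 36.6%). The log2 difference was 7.73 ± 1.45 for MMP9, 5.16 ± 0.52 for ADAMTS12, 4.92 ± 0.52 for ADAMTS5, 4.23 ± 0.42 for ADAMTS15, 3.83 ± 0.61 for MMP14, 3.74 ± 0.69 for MMP2, 3.72 ± 0.37 for TIMP3, 3.57 ± 0.51 for TIMP4 and 2.06 ± 0.62 for TIMP1. ADAMTS13 (-2.44 ± 0.23) and ADAMTS19 (-2.68 ± 0.53) were the 2 genes lower in AT. The genes that did not pass the test included ADAMTSL2 (-0.71 ± 0.46), ADAMTSL4 (0.15 ± 0.30) and ADAMTS1 (0.21 ± 0.21). With library size alone the median of all genes moved by 0.72, 27 genes were higher and the same 2 lower, and no DE gene changed its sign.

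**Figure D5:**
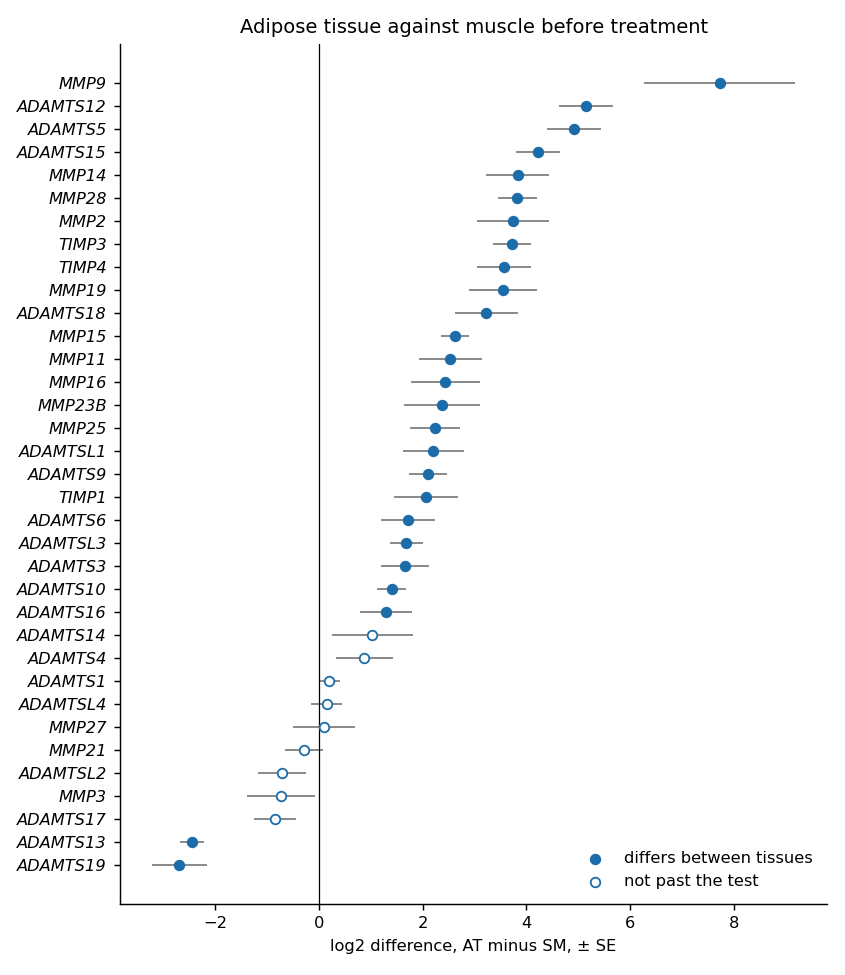
Log2 difference between AT and SM before treatment, with SE (bars), for the 35 genes tested in both tissues. Filled points are DE: 24 lie to the right (higher in AT), and ADAMTS13 and ADAMTS19 lie to the left.

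Several genes of the secreted MMP family form a run of 9 consecutive protein-coding genes in RefSeq order: MMP7, MMP20, MMP27, MMP8, MMP10, MMP1, MMP3, MMP12 and MMP13. None of them was DE within either tissue in the fits reported here, and 5 of them failed the filter in both. Alternative fits of AT did call 3 of them: MMP10 (from pre to post and from post to washout, without the filter on low counts and in the last identifier series alone, and from post to washout also with only these 2 time points), MMP27 (from pre to post, with limma voomWithQualityWeights and without animal 24849) and MMP12 (from post to washout, without animal 22130). MMP7, or matrilysin, ranged from 6.49 to 210.4 CPM in AT at pre, from 1.33 to 223 CPM at post and from 2.37 to 282 CPM at washout, with SEs of 0.72 to 0.78 on its 3 log2FC. MMP12, the macrophage metalloelastase, had a post median of 0.844 CPM but 37.6 CPM in animal 22130, and the next highest post library had 1.99 CPM.

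The stromelysin MMP3 was highest in animal 21189 in each of the 6 groups of libraries, an order noticed after the values were seen and not tested. In AT this animal had 7.81 CPM at pre, 11.3 CPM at post and 7.06 CPM at washout, against group medians of 1.77, 1.83 and 1.75 CPM. In SM it had 31.0, 3.64 and 17.1 CPM, against medians of 0.963, 0.140 and 0.261 CPM. Of the 37 genes tested in AT, ADAMTS12 was the other gene with the same animal highest at all 3 AT time points, and for ADAMTS15, ADAMTSL1 and MMP11 the same animal was lowest at all 3.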

How the data were processed

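Rhesus RNA was sequenced after poly(A) selection with a stranded kit as paired reads. Raw counts per gene, with human gene symbols, were deposited after alignment to MacaM with STAR. The counting tool and its strand setting are not given in the sources used here. The labels also name FastQC, SAMtools, edgeR and limma. The table held 16103 rows, of which 70 repeats of a gene were left out. Of 51 labelled samples, 48 had counts, and the other 3 (SM) are not analysed here. TIMP1, TIMP3 and TIMP4 overlap SYN1, SYN3 and SYN2, and MMP9 overlaps CD40, in the RefSeq annotation of a newer rhesus assembly than MacaM, which was used for names and neighbours alone (43 of 44 symbols matched, all but MMP23B). Without the strand setting, reads of such pairs cannot be told apart.

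edgeR 4.0.16 (R 4.3.3) fitted counts per tissue with TMM factors, animal and time point (glmQLFit, robust; glmQLFTest), as did a joint fit with 1 mean per tissue and time point. The low-count filter, adjusted p limit of 0.05 and log2FC limit of 0.26 were those of the study. Its method, limma voomWithQualityWeights (limma 3.58.1), was run here as an alternative, as was DESeq2 1.42.0. SE was the absolute log2FC over the root of F. The scripts were tested on simulated data. The animal numbers in the labels pair the libraries. Over the genes tested in AT, deviations from the group mean of the same animal correlated with a median r of 0.40 at pre and post (lowest -0.35, against a median of -0.05 between different animals). It was 0.50 at post and washout and 0.61 at pre and washout, and in SM 0.19, 0.098 and 0.47. Between different animals the SM medians were 0.006, 0.019 and -0.04, and the lowest same-animal values were -0.31, -0.41 and -0.07. So pairing showed little in SM at pre and post and at post and washout. Biopsies are the replicates, 1 per animal and time point. Library identifiers fall into 3 series, whose meaning is not stated. In SM these held 3, 1 and 2 pre libraries, 5, 0 and 3 post libraries, and 0, 1 and 6 washout libraries. In AT they held 0, 3 and 7, then 0, 2 and 7, and 1, 3 and 4. Fits with the series as a term and of the last series alone are alternatives.

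The genes and lists were chosen with earlier results of these data known. Named are TIMP1, TIMP3, TIMP4, MMP2, MMP9, MMP14 and each gene that was DE in any comparison within a tissue, 21 in all; genes of the regulator and substrate lists are named if DE from pre to post in AT with the 4 largest changes per list. Other genes were named after their values were seen. Marker lists of neutrophils, T cells and mast cells were also summed. In AT their median sums at pre, post and washout were 22.0, 14.6 and 14.2 CPM (neutrophils), 9.57, 14.1 and 12.3 CPM (T cells) and 69.4, 90.3 and 96.4 CPM (mast cells).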

Additional observations from a re-analysis of the deposited data

Results flagged for a closer look

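In the groups of 6 to 10 libraries, the highest or lowest library of each named gene was compared with its nearest neighbour by Dixon's ratio on log2 CPM. Of 126 groups 6 were past the 95% limit, or 4.76%, and chance passes about 1 in 20. In AT these were the ADAMTS12 level of animal 26292 at washout (41.4 CPM, next 9.22), the ADAMTS6 level of animal 19832 at pre (12.6 CPM, next 8.90) and the low MMP28 level of animal 20275 at post (20.8 CPM, next 41.9). In SM they were ADAMTS12 in animal 24849 at pre (1.67 CPM, next 0.326), MMP16 in animal 22130 at washout (15.5 CPM, next 2.78) and TIMP4 in animal 24849 at post (15.8 CPM, next 4.34).

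The change from post to washout differed between AT and SM by the test of the difference itself for 4 genes. The log2 difference, AT minus SM, was 2.09 for ADAMTS10, 1.72 for ADAMTS13, -1.84 for ADAMTS12 and -2.22 for ADAMTSL1. ADAMTS10 and ADAMTS13 were called in each alternative of the joint fit, ADAMTS12 and ADAMTSL1 were not.

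Collagenase MMP1 and stromelysin MMP10 failed the filter and were not tested in the fits reported above. MMP10 was called in AT by the alternatives without that filter and in the last identifier series alone. The AT post library of animal 21189 held 366 counts of MMP1 (21.7 CPM), where no other of the 48 libraries had more than 6, and 135 counts of MMP10 (8.0 CPM), where the next highest, the AT post library of animal 22130, had 25. Both genes were at 0 counts in 35 of 48 libraries, and no AT pre library had more than 3 counts of either. The SM post library of the same animal had 0 counts of both, and its AT washout library had 1 count of MMP1 and 0 of MMP10.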

How the results depend on the processing

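No named gene with a call, in the reported fit or in an alternative, changed sign between them. Of 2415 values of named genes under alternatives, 2283 kept their side of the limit, 105 lost and 27 gained a call, and 146 that were called in neither fit changed sign. The count from pre to post in AT (10) was 6 in the last identifier series alone, 5 without the pre library of animal 20275, and 4 to 11 with each animal left out. From post to washout (17) it was 13 to 18 with each animal left out and 12 in the last series. From pre to washout (7) it was 12 with limma voomWithQualityWeights, 4 without the replicate block and 4 to 8 with each animal left out. In SM, DESeq2 called 1 gene from post to washout (beside 2.85% of all genes) and 1 from pre to washout (beside 1.42%). The identifier series in the model, with replicate block, called 1 (ADAMTS3, beside 21% of all genes) and 2 (ADAMTS13 and ADAMTS19, beside 10.7%). In the reported fit these shares over all genes were 0.19% and 0.0634%. The cause of these shifts was not tested. Without the replicate block, counts in AT were 7 from pre to post and 15 from post to washout and, beyond the count given above, no count moved by over 1.5 times. The joint counts were 0, 3 to 5 and 26 to 28 with each animal left out, and 6 of 35 genes differed from post to washout without the block (5 higher and 1 lower in AT). The last series alone, the earlier quasi-likelihood method and the loss of the SM post library of animal 21189 were chosen after seeing the data. Precision in SM differed by gene, with an SE on the log2 scale of 0.93 for MMP2 and 0.26 for MMP15 from pre to post, and no detection limit was computed.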
